A study of Arabidopsis thaliana with 4 samples.

Results

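The genes described here encode proteins of the cytosolic ribosome of Arabidopsis thaliana. They are 56 genes given as a list of gene identifiers, and all 56 had values in the 4 libraries, among 33602 gene entries in the table. Of these entries 17684 had 4 values averaging 1 RPKM or more; they are called the genes tested, and all 56 are among them. They cover 32 proteins, with 27 genes for the large and 29 for the small subunit. Of the proteins, 13 are represented by 1 gene, 14 by a pair of paralogues and 5 by 3 paralogues. Other paralogues of the same proteins exist in the genome and are counted with the other ribosomal protein genes below. Wild-type seedlings of the accession Col-0 were grown for 4 days at 22 °C without light and were therefore etiolated. They were then either left in the dark or put under white light of 100 µmol m-2 s-1 for 4 h. Messenger RNA of 2 fractions was sequenced, total RNA and polysomal RNA, the RNA bound by several ribosomes. The groups are total dark, total light, polysomal dark and polysomal light. The Pine Tree method was used for total RNA and a phenol and chloroform extraction for polysomal RNA, so fraction and extraction cannot be told apart. The deposited reads are counts for total RNA and estimated counts for polysomal RNA. Fraction and kind of count therefore cannot be told apart either. Each group has 1 library of whole seedlings, so no value has a replicate error and no test between groups was possible. In such material, fewer cells of a type and less RNA per cell cannot be told apart.

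The cytosolic ribosome of plants has a small subunit, which decodes the message, and a large subunit, which joins the amino acids. Each of its proteins is encoded by a small gene family, and the paralogues of a family make very similar or identical proteins. Light given to etiolated seedlings is known to start the opening of the cotyledons and the build-up of chloroplasts, with a rise of protein synthesis. In Arabidopsis the target-of-rapamycin kinase (TOR) and the S6 kinase act in this response, and the S6 kinase phosphorylates the ribosomal protein RPS6.

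The libraries hold between 61006149 and 91087442 listed reads. Between them, the 56 genes took 0.478% (total dark), 0.535% (total light), 1.17% (polysomal dark) and 1.49% (polysomal light) of the listed reads. Genes used as a check of the light treatment differed strongly between dark and light. The level of PORA, the protochlorophyllide oxidoreductase of etiolated tissue, was 110 RPKM in total dark and 2.00 in total light. The level of CAB2, an antenna protein of the chloroplast, was 7.54 RPKM in total dark and 941 in total light.

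Levels are given as RPKM, reads per kilobase of transcript scaled to library size, as deposited. The median level of the 56 genes was 74.6 (total dark), 87.9 (total light), 189 (polysomal dark) and 245 RPKM (polysomal light). Over all genes tested the medians in the same order were 10.5, 11.3, 9.36 and 8.59 RPKM. The ribosomal protein genes were thus abundant in every library, and their median stood higher in the polysomal than in the total libraries. The levels spread widely among the 56 genes, from 1.50 RPKM (RPSaB) to 249 RPKM (RPL3A) in total dark and from 6.77 RPKM (RPSaB) to 861 RPKM (RPL10A) in polysomal light. RPSaB and RPSaA encode a protein of the small subunit related to the animal laminin receptor, RPL3 lies near the peptidyl transferase centre, and RPL10 is needed in yeast for joining of the subunits.

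**Figure D1:**
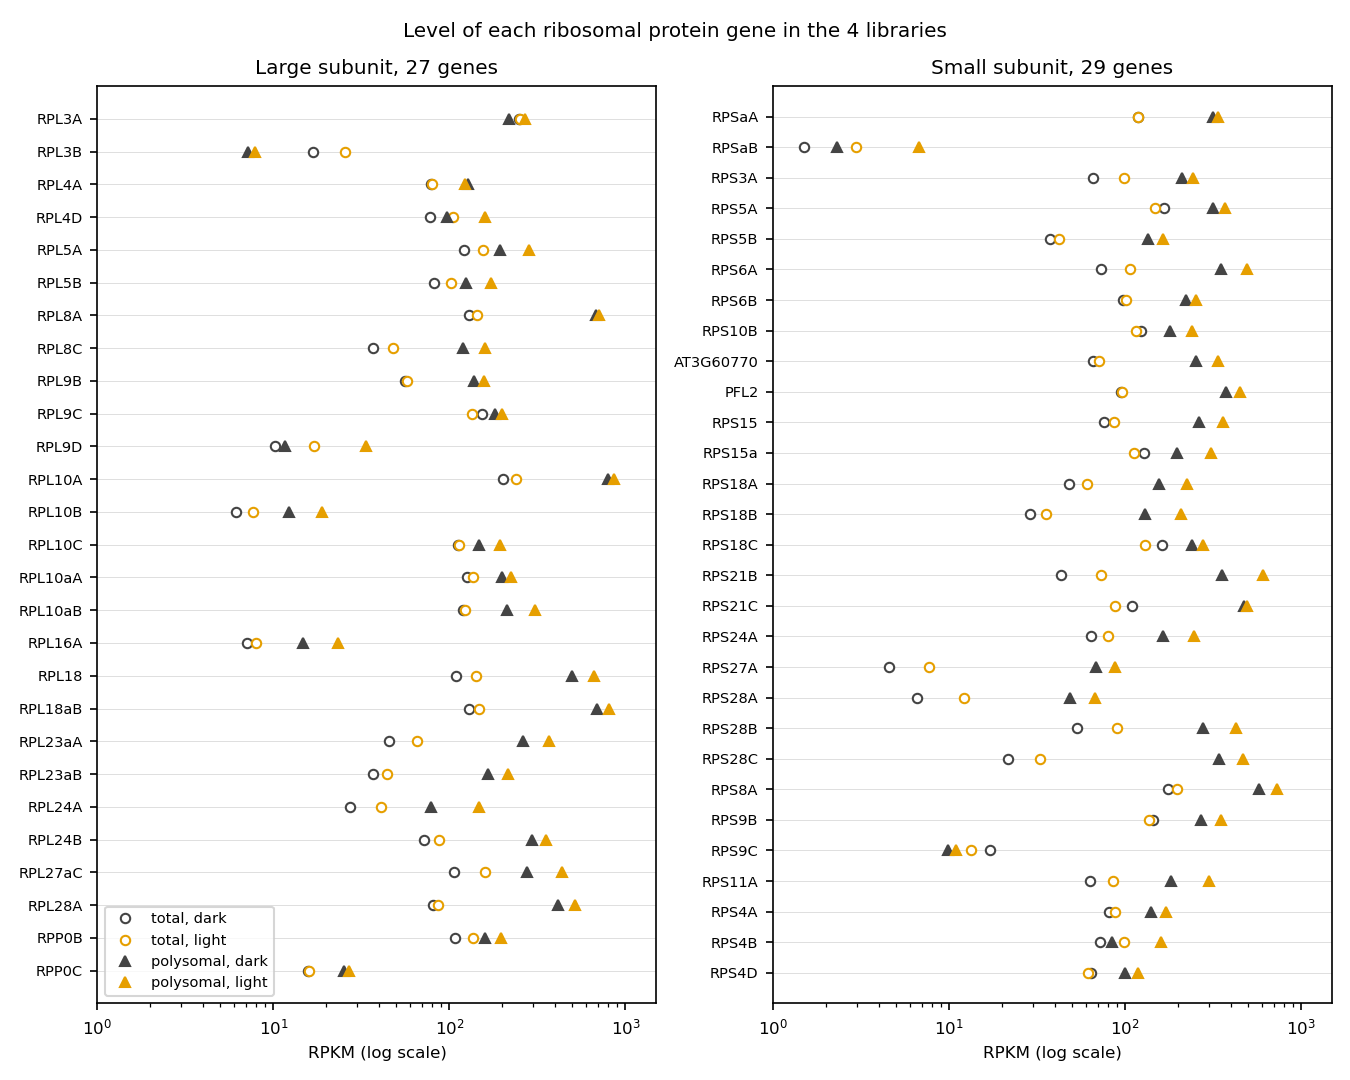
Level of each of the 56 genes in RPKM (log scale) in the total libraries (open circles) and the polysomal libraries (triangles), dark in grey and light in orange, 1 library each. Most genes sit higher in polysomal than in total RNA, while RPL3B and RPS9C sit lower there in both conditions and RPL3A in the dark.

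In total mRNA, 4 h of light was accompanied by small differences. None of the 56 genes was at least 2-fold higher or lower in the light on the log2 scale of RPKM plus 1, where 10.7% of all genes tested were at least 2-fold higher and 5.73% at least 2-fold lower. The median log2 ratio of light over dark was 0.21 for the 56 genes and -0.02 for all genes tested, and 47 of the 56 lay above the median of all genes. Fold values of single genes are RPKM ratios with an exact 95% interval computed from the reads (Clopper-Pearson). With 1 library per group it covers counting error only. It also treats reads as independent molecules, which they are not, so it may be too narrow even for counting error. This interval lay above 1 for 39 genes, below 1 for 9 and held 1 for 8. Of the 17656 genes tested that had reads in all 4 libraries, it lay above 1 for 41.0% and below 1 for 43.2%, so at this depth most genes have an interval that excludes 1. Intervals are narrower for genes with more reads, and the 56 genes had a higher median level than all genes. Such shares, here and below, are therefore not matched on depth.

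On the log2 scale of RPKM plus 1, the highest ratios in total mRNA belonged to small-subunit genes. RPS28A had 6.56 RPKM in darkness and 12.2 in light, a ratio of 1.85 (1.60 to 2.15), and its paralogue RPS28B had 53.1 and 90.0 RPKM, a ratio of 1.69 (1.61 to 1.79). RPS21B had 43.1 RPKM in darkness and 72.9 in light, a ratio of 1.69 (1.60 to 1.79). RPS28 lies near the exit of the message from the small subunit, and RPS21 is a small protein found in eukaryotes. At the other end, RPS9C had 17.1 RPKM in darkness and 13.3 in light, a ratio of 0.780 (0.715 to 0.852). RPS18C had 163 and 130 RPKM, a ratio of 0.797 (0.774 to 0.820), and RPS21C had 110 and 87.5 RPKM, a ratio of 0.797 (0.765 to 0.830). Genes of the same protein thus stood at both ends of the range, as RPS21B and RPS21C did.

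In polysomal mRNA the ratios of light over dark were higher. Of the 56 genes, 2 were at least 2-fold higher in the light and 0 at least 2-fold lower, where 9.35% and 10.3% of all genes tested passed these limits, so these counts lie below the background. The 2 became 1 with a pseudocount of 5 or a minimum mean of 5 RPKM, and 4 with ratios centred on the median of genes of at least 5 RPKM. RPSaB has a mean under that minimum. The median log2 ratio was 0.39 for the 56 genes and -0.17 for all genes tested, and all 56 lay above the median of all genes. The interval of the fold lay above 1 for 53 genes, below 1 for 1 (RPL4A) and held 1 for 2 (RPL3B and RPS9C), where it lay above 1 for 32.6% and below 1 for 52.4% of all genes tested with reads in all libraries. The differences stayed below 2-fold for 54 of the 56 genes.

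The 2 genes past 2-fold were the paralogues with the lowest levels of their families. RPL9D (AT4G10450), which encodes a large-subunit protein, had 10.2 (total dark), 17.0 (total light), 11.6 (polysomal dark) and 33.4 RPKM (polysomal light). Its light over dark ratio was 1.67 (1.52 to 1.84) in total and 2.88 (2.65 to 3.13) in polysomal mRNA. RPSaB (AT3G04770) had 1.50, 2.97, 2.31 and 6.77 RPKM in the same order, with ratios of 1.98 (1.62 to 2.44) in total and 2.93 (2.50 to 3.45) in polysomal mRNA. RPSaB overlaps the neighbouring gene AT3G04780 on the same strand by 132 bases, so its reads are uncertain. At the low end, RPL4A, which encodes a protein lining the exit tunnel, had 127 RPKM in polysomal dark and 122 in polysomal light, a ratio of 0.956 (0.933 to 0.979).

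**Figure D2:**
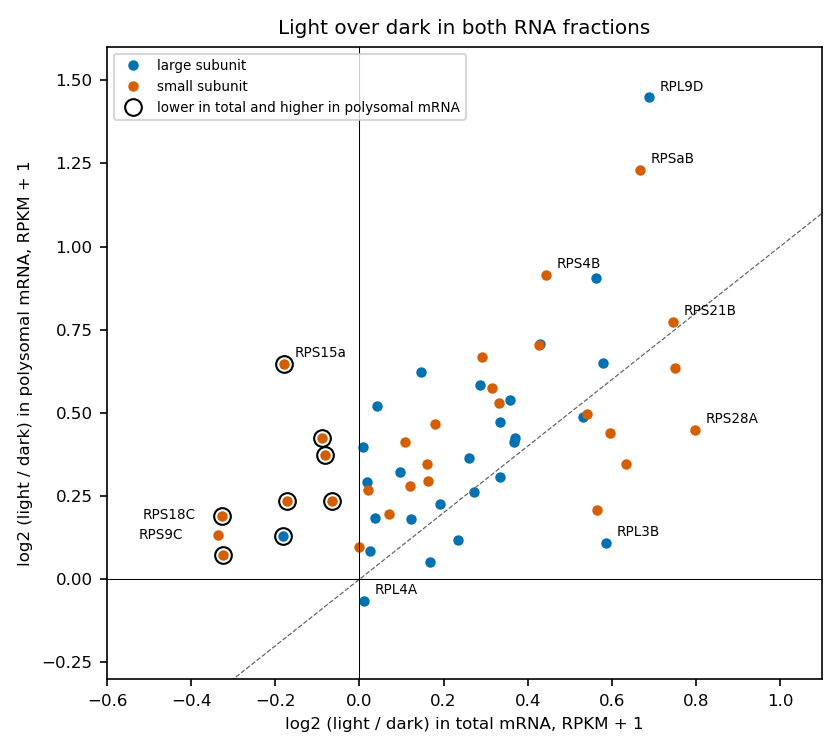
Log2 ratio of light over dark in polysomal mRNA against the same ratio in total mRNA, with 1 added to each RPKM, for the 27 large-subunit (blue) and 29 small-subunit genes (orange). Rings mark the 8 genes that were lower in total and higher in polysomal mRNA, and the dashed line marks equal ratios.

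For 8 of the 56 genes the light over dark ratio lay below 1 in total mRNA and above 1 in polysomal mRNA, with both intervals excluding 1. Among all genes tested with reads in all libraries, 1.13% did the same. This share is not matched on read depth, and intervals are narrower for genes with more reads. The median level in total dark was 74.6 RPKM for the 56 genes and 10.5 for all genes tested. The list depends on scaling at its edge. With RPKM scaled to equal sums over nuclear genes the count was 10, without RPS21C and with RPL10C, RPL3A and RPSaA, and with ratios centred on genes of at least 5 RPKM it was 8, without RPS4D and with RPS9C. RPS15a (AT1G07770), which encodes a protein of the small subunit, had 128 (total dark), 113 (total light), 196 (polysomal dark) and 308 RPKM (polysomal light). Its ratio was 0.882 (0.853 to 0.913) in total and 1.57 (1.53 to 1.61) in polysomal mRNA. RPS10B, another gene of the small subunit, had 123, 116, 180 and 242 RPKM in the same order, with ratios of 0.940 and 1.34. The other members of this group were RPL9C, RPS5A, RPS18C, RPS21C, RPS9B and RPS4D. Their ratios ran from 0.797 to 0.956 in total and from 1.05 to 1.30 in polysomal mRNA. Of the 8 genes, 7 encode small-subunit proteins, as 29 of the 56 members do, and with equal sums 7 of the 10 did.

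The polysomal over total ratio sets the level of a message in polysomal RNA against its level in total RNA. It depends on the scaling of the libraries, so the members are set beside all genes. For every gene it also sets estimated counts against counts, and the part of this in the ratios was not tested. In the dark, 31 of the 56 genes were at least 2-fold higher in polysomal mRNA and 1 was at least 2-fold lower, where 16.5% and 16.2% of all genes tested were. In the light the counts were 39 and 1, where 12.8% and 21.4% of all genes tested were. The median log2 ratio of the 56 genes was 1.36 in darkness and 1.44 in light, against -0.14 and -0.31 over all genes tested. Of the 56 genes, 53 lay above the median of all genes in darkness and 55 in light. The median log2 ratio was 0.90 for the 27 large-subunit and 1.66 for the 29 small-subunit genes in the dark. In the light these medians were 1.31 and 1.79. They are not matched on length, and the 4 genes of shorter implied length described below are all small-subunit genes. The part of length in the difference between the subunits was not tested.

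The ranks of the genes by this ratio were alike in darkness and in light, with Spearman's rho of 0.95 over the 56 genes. These ratios come from separate libraries but share gene length and any overlap between genes. The change of the ratio from dark to light had a median of 0.18 on the log2 scale for the 56 genes and -0.18 for all genes tested, and 52 of the 56 lay above the median of all genes. None reached 2-fold in either direction, where 0.741% of all genes tested were at least 2-fold higher and 3.27% at least 2-fold lower.

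Short messages had higher polysomal over total ratios among all genes, and ribosomal protein messages are short. Their transcript lengths ran from 0.56 to 1.66 kb with a median of 0.995 kb, against a median of 1.65 kb over all genes tested. For each gene the ratio was therefore set against the median of the genes within 10% of its length, of which there were between 316 and 3083. In the dark, 43 of the 56 genes lay above the median of genes of like length, where 49.8% of all genes tested did, and 13 lay below. In the light, 52 lay above, where 49.6% of all genes did, and 4 below. The median excess over genes of like length was 0.50 on the log2 scale in darkness and 0.87 in light. With genes matched on total level as well as length, the median excess was 0.32 in darkness and 0.62 in light, and 34 and 46 genes lay above. With a minimum mean of 5 RPKM the dark value was 0.31. The raw median log2 ratio of the 56 genes, not set against other genes, was 1.36 in darkness and 1.44 in light. The like-length medians they were set against had a median of 0.79 in darkness and 0.66 in light. Over all genes tested the medians were -0.14 and -0.31. The number of genes above the like-length median was larger in the light. At least 2-fold above genes of like length were 19 of the 56 genes in darkness and 22 in light, where 9.95% and 7.61% of all genes were. The match used the deposited length for every gene, also for 4 genes of shorter implied length described below. Within the 56 genes the ratio was also lower for longer genes, with Spearman's rho of -0.37 in darkness and -0.47 in light.

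**Figure D3:**
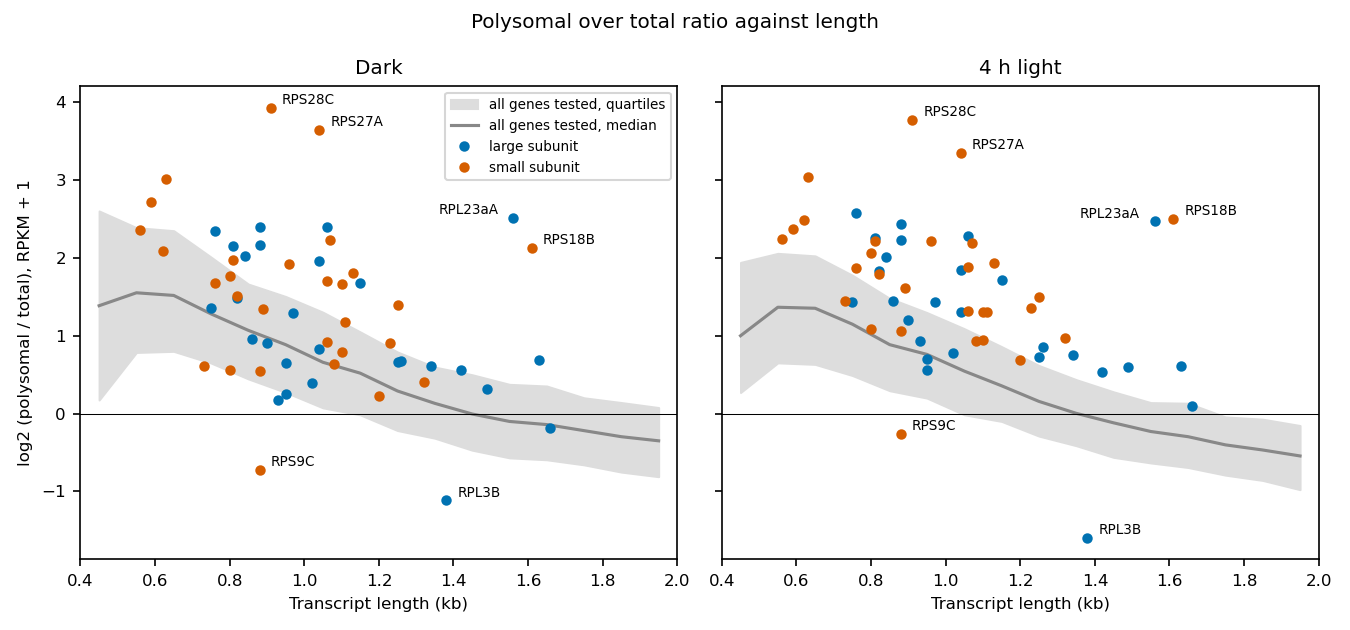
Log2 polysomal over total ratio, with 1 added to each RPKM, against deposited transcript length in kb in the dark (left) and after 4 h of light (right). Points are the 27 large-subunit and 29 small-subunit genes, the line is the median and the band the range between the quartiles of all genes tested in bins of 0.1 kb; RPL3B and RPS9C lie below the band in both panels.

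The 4 genes below the genes of like length in both conditions were RPL3B, RPS9C, RPL9C and RPL10aA. RPL3B (AT1G61580) had 16.7 (total dark), 25.6 (total light), 7.19 (polysomal dark) and 7.83 RPKM (polysomal light). Its polysomal over total ratio was 0.429 (0.393 to 0.469) in darkness and 0.305 (0.280 to 0.332) in light, and it was the gene at least 2-fold lower in both. Relative to the median of genes of like length, its log2 ratio was -1.20 in darkness and -1.56 in light. RPS9C (AT5G39850) had 17.1, 13.3, 9.93 and 10.97 RPKM in the same order, with ratios of 0.581 in darkness and 0.823 in light. RPS9 binds early to the ribosomal RNA of the small subunit. RPL9C and RPL10aB, the paralogue of RPL10aA, are known from the piggyback leaf mutants of Arabidopsis. RPL9C and RPL10aA lay closer to the genes of like length, at -0.63 and -0.23 in darkness and at -0.19 and -0.05 in light.

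The highest ratios need a remark on length. For 4 of the 56 genes the reads and RPKM in the polysomal libraries imply a transcript length outside 0.8 to 1.25 times the deposited length, as they do for 9.15% of all genes tested. The genes were RPS28C, RPS27A, RPS18B and RPS28A, with implied lengths of 0.543, 0.543, 0.490 and 0.783 times the deposited ones. A shorter length raises their polysomal RPKM, so the ratio of their shares of listed reads, which uses no length, is given beside the RPKM ratio. RPS28C (AT5G64140) had 21.5 (total dark), 33.0 (total light), 343 (polysomal dark) and 466 RPKM (polysomal light). Its RPKM ratio of polysomal over total was 16.0 in darkness and 14.1 in light, and its ratio of read shares was 8.45 and 7.47. RPS27A (AT2G45710) had 4.59, 7.68, 68.8 and 87.8 RPKM, with RPKM ratios of 15.0 and 11.4 and ratios of read shares of 7.97 and 6.07. RPS18B had RPKM ratios of 4.48 and 5.80 and ratios of read shares of 2.15 and 2.77. RPS28A had RPKM ratios of 7.47 and 5.54 and ratios of read shares of 5.68 and 4.22. On both measures these 4 genes were enriched in polysomal RNA, and the RPKM ratio gave the larger value.

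Among the genes whose lengths matched, the highest ratio was that of RPS21B (AT3G53890), with 43.1 (total dark), 72.9 (total light), 354 (polysomal dark) and 606 RPKM (polysomal light). Its ratio was 8.23 in darkness and 8.31 in light. RPL23aA (AT2G39460), which encodes a protein at the exit of the tunnel where the signal recognition particle docks, had 45.1, 65.6, 262 and 368 RPKM in the same order. Its ratio was 5.82 in darkness and 5.61 in light. Its log2 ratios of 2.51 and 2.47 stood 2.61 and 2.69 above genes of like length, for a deposited length of 1.56 kb. Its paralogue RPL23aB, also with 465 coding bases, has a deposited length of 0.81 kb. The log2 ratios of RPL23aB, 2.16 and 2.26, stood 1.03 and 1.28 above genes of like length. The size of such an excess thus depends on the deposited length. RPL8A had 128, 144, 683 and 707 RPKM, with ratios of 5.32 and 4.90. RPL18aB had 129, 147, 685 and 801 RPKM, with ratios of 5.31 and 5.44. RPL8A and RPL18aB were about as abundant in total RNA as RPL10aA, which had 126, 137, 198 and 224 RPKM and ratios of 1.57 and 1.64, so similar total levels went with different polysomal levels.

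Paralogues of the same protein were compared next. The 19 proteins with more than 1 gene here gave 29 pairs of paralogues. The coding sequences of the pairs were between 78.4% and 99.1% identical, with a median of 87.6%, and their longest identical runs spanned 20 to 458 bases. For 12 of the 56 genes the deposited polysomal reads are not whole numbers, as reads shared out between genes would give, and for 44 they are whole in both libraries. The pair RPL9B and RPL9C was the most alike, at 99.1% with a shared run of 458 bases, and both have polysomal reads that are not whole, so the division of reads between them is uncertain.

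In light over dark, 1 of the 29 pairs differed at least 2-fold in total mRNA (RPS21B against RPS21C) and 3 in polysomal mRNA (RPL9B and RPL9C against RPL9D, and RPSaA against RPSaB). In the polysomal over total ratio, 10 pairs differed at least 2-fold in darkness and 6 in light. With RPKM recomputed from the deposited reads and length, and the pseudocount kept, the counts were 7 and 3. From reads alone, with neither length nor pseudocount, they were 5 and 3. The median absolute difference between paralogues was 0.28 on the log2 scale for light over dark in each fraction, 0.73 for polysomal over total in darkness and 0.55 in light. For 28 of the 29 pairs the same paralogue had the higher polysomal over total ratio in darkness and in light. The exception was the pair RPL9C and RPL9D, whose log2 difference was 0.08 in darkness and -0.37 in light. From reads alone the order also changed for RPL4A minus RPL4D (0.35 and -0.004) and RPS4A minus RPS4D (0.13 and -0.01). The dark and light ratios of a pair share gene length and any sharing out of reads, so they are not independent.

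**Figure D4:**
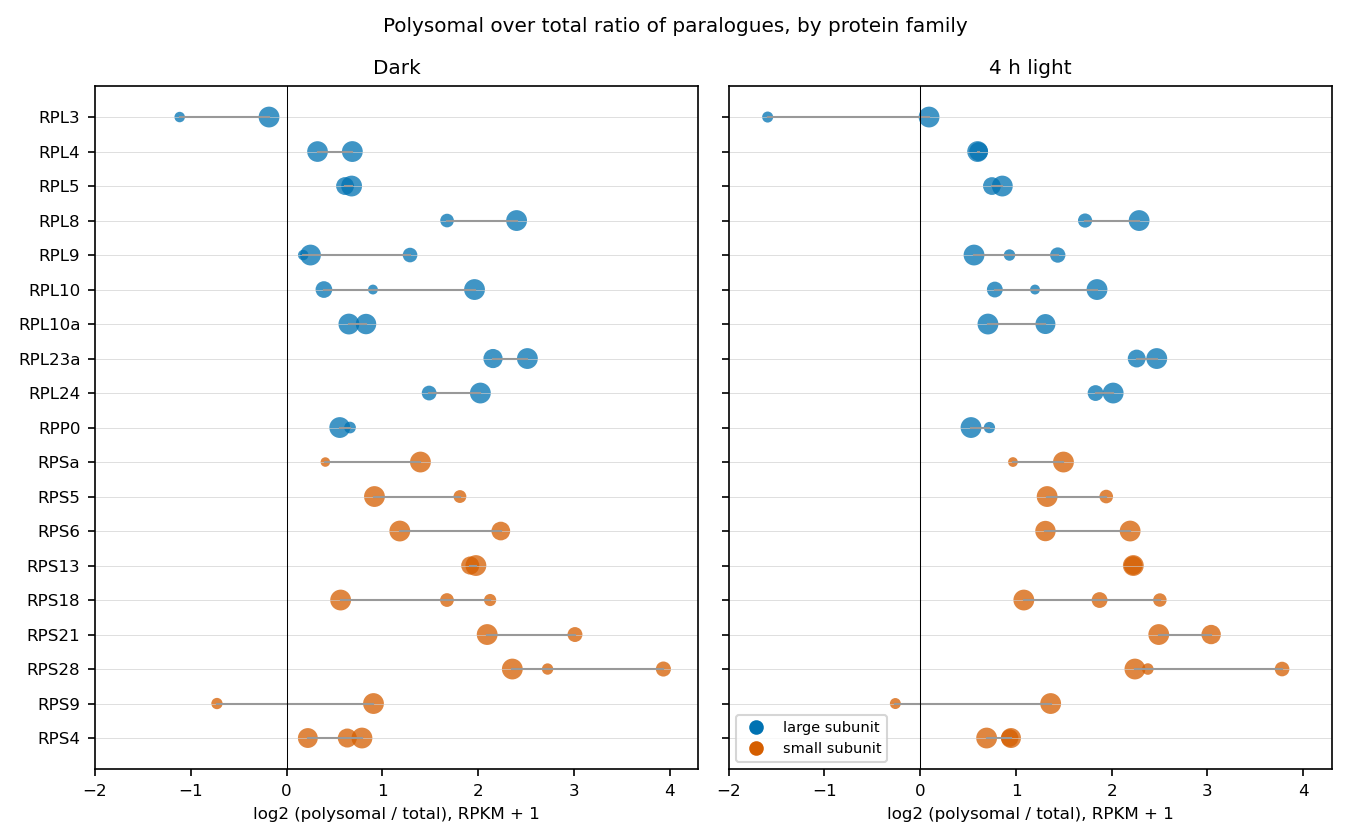
Log2 polysomal over total ratio, with 1 added to each RPKM, of each paralogue in the 19 proteins with more than 1 gene, in the dark (left) and after 4 h of light (right). Point size grows with the paralogue's share of the highest total RNA level in its family, and lines join the lowest and highest ratio; the lines are longest for RPS9, RPS28, RPL10 and RPS18 on the left and for RPL3, RPS9 and RPS28 on the right. From reads alone, the largest differences of RPS28 and RPS18, which hold genes of shorter implied length, were 0.97 and 1.13 in darkness and 0.92 and 0.80 in light.

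Shares, sums and leads are over the members of each protein only, without its other paralogues in the genome. In 13 of the 19 proteins the same paralogue had the highest RPKM in all 4 libraries, and in 14 with RPKM recomputed from reads and the deposited length. The summed RPKM of the paralogues was higher in the light for 15 proteins and lower for 4 in total mRNA, with ratios from 0.927 to 1.66. In polysomal mRNA it was higher in the light for all 19, with ratios from 1.08 to 1.44.

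Among proteins of the large subunit, RPL3 was made up almost wholly of RPL3A. RPL3A had 249 (total dark), 252 (total light), 219 (polysomal dark) and 269 RPKM (polysomal light), and RPL3B held 6.30% (total dark), 9.24% (total light), 3.18% (polysomal dark) and 2.83% (polysomal light) of the summed RPKM. The polysomal over total ratio of RPL3A was 2.05 (1.88 to 2.24) times that of RPL3B in darkness and 3.49 (3.21 to 3.80) times in light. The sequences of this pair were 79.3% identical, with no identical run over 26 bases. RPL4 showed a change of lead, since RPL4A (AT3G09630) had 78.8, 79.5, 127 and 122 RPKM and RPL4D (AT5G02870) had 77.4, 105, 97.1 and 159 RPKM. The share of RPL4D went from 49.5% to 56.8% in total and from 43.2% to 56.6% in polysomal mRNA. The light over dark ratio of RPL4D was 1.34 (1.29 to 1.39) times that of RPL4A in total and 1.71 (1.66 to 1.77) times in polysomal mRNA.

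RPL5 binds the smallest ribosomal RNA of the large subunit, together with RPL11, which is encoded here by RPL16A. The RPL5 genes had close ratios. RPL5A had 121, 156, 195 and 283 RPKM and RPL5B had 81.2, 103, 124 and 173 RPKM, and the ratio between their light over dark ratios was 1.02 (0.978 to 1.06) in total mRNA and 1.04 (1.01 to 1.08) in polysomal mRNA. RPL16A had 7.09, 7.95, 14.8 and 23.3 RPKM. For RPL10, RPL10A (AT1G14320) led with 203, 239, 793 and 861 RPKM, and RPL10C (AT1G66580) had 112, 113, 147 and 194 RPKM. RPL10A took 63.1% of the summed RPKM in total dark and 83.2% in polysomal dark, and its polysomal over total ratio was 2.98 (2.88 to 3.09) times that of RPL10C in darkness and 2.09 (2.03 to 2.16) times in light. Both genes have polysomal reads that are not whole. The third gene, RPL10B, had only 6.10, 7.66, 12.3 and 18.9 RPKM.

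RPL24 is needed in Arabidopsis for reinitiation after upstream reading frames, a role found with RPL24B. RPL24B had 71.8, 86.9, 295 and 354 RPKM and RPL24A had 27.3, 40.8, 78.4 and 148 RPKM. The light over dark ratio of RPL24A was 1.23 (1.15 to 1.33) times that of RPL24B in total and 1.57 (1.50 to 1.64) times in polysomal mRNA, and its share of the pair went from 21.0% to 29.4% in polysomal mRNA. RPL10aA and RPL10aB had nearly equal levels, with 51.2% of the RPKM summed over this pair from RPL10aA in total dark and 52.6% in total light. In polysomal mRNA its share was 48.1% in darkness and 42.2% in light. RPP0, the base of the stalk that recruits elongation factors, came mostly from RPP0B, which held between 86.2% and 89.5% of the pair.

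Among proteins of the small subunit, the RPS6 genes differed in both comparisons. RPS6A (AT4G31700) had 73.4 (total dark), 107 (total light), 350 (polysomal dark) and 494 RPKM (polysomal light). RPS6B (AT5G10360) had 96.8, 102, 221 and 253 RPKM in the same order. RPS6B was the more abundant gene in total dark, and RPS6A in the other 3 libraries. The light over dark ratio of RPS6A was 1.39 (1.33 to 1.46) times that of RPS6B in total and 1.23 (1.20 to 1.26) times in polysomal mRNA. Its polysomal over total ratio was 2.09 (2.00 to 2.17) times that of RPS6B in darkness and 1.85 (1.79 to 1.91) times in light.

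RPS5A (AT3G11940), whose promoter is widely used to express genes in dividing cells, had 167, 148, 316 and 372 RPKM, and RPS5B had 37.7, 42.3, 135 and 165 RPKM. RPS5A thus held 81.6% of the pair in total dark but 70.1% in polysomal dark. The polysomal over total ratio of RPS5B was 1.89 (1.80 to 1.98) times that of RPS5A in darkness and 1.55 (1.49 to 1.62) times in light. For RPS21, RPS21C had 110, 87.5, 472 and 497 RPKM and RPS21B, given above, passed it in polysomal light. The share of RPS21B was 28.2% (total dark), 45.4% (total light), 42.9% (polysomal dark) and 54.96% (polysomal light), the largest move among the paralogues in light over dark in total mRNA. Its light over dark ratio in total mRNA was 2.12 (1.98 to 2.28) times that of RPS21C.

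RPS18 and RPS13 are the proteins behind the pointed first leaf mutants of Arabidopsis. RPS18C had 163, 130, 242 and 276 RPKM and RPS18A had 48.2, 60.9, 156 and 226 RPKM. The polysomal over total ratio of RPS18A was 2.19 (2.07 to 2.30) times that of RPS18C in darkness and 1.74 (1.67 to 1.82) times in light. RPS18C held 67.9% of the summed RPKM of its family in total dark and 38.9% in polysomal light, where the share of RPS18B is raised by its shorter polysomal length. PFL2 had 94.6, 96.0, 375 and 453 RPKM and AT3G60770 had 66.0, 71.1, 252 and 336 RPKM, and the ratio between their polysomal over total ratios was 0.963 (0.920 to 1.01) in the dark.

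On the RPKM scale the RPS9 pair stood furthest apart in the polysomal over total ratio in the dark. RPS9B (AT5G15200) had 144, 136, 271 and 351 RPKM, and its ratio was 3.24 (2.93 to 3.58) times that of RPS9C in darkness and 3.14 (2.83 to 3.48) times in light. The coding sequences of RPS9B and RPS9C were 80.8% identical, both have whole polysomal reads, and the difference was 1.70 and 1.65 on the log2 scale of reads. RPS4 had 3 genes of similar level. RPS4B had 72.02, 98.3, 84.2 and 160 RPKM, and its light over dark ratio was 1.25 (1.20 to 1.31) times that of RPS4A in total and 1.56 (1.50 to 1.62) times in polysomal mRNA. RPS28B had 53.1, 90.0, 276 and 430 RPKM and was the highest RPS28 gene in total RNA. In polysomal RNA RPS28C was higher on the deposited RPKM, but on RPKM recomputed with the deposited length RPS28B was the highest in all 4 libraries, with 233 against 183 in polysomal dark and 361 against 248 in polysomal light. By reads alone the ratio of RPS28C was still the higher, with a log2 difference of RPS28B minus RPS28C of -0.97 in darkness and -0.92 in light.

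The remaining proteins had 1 gene here. RPL18, RPL28A, RPS8A and RPL27aC had the highest polysomal levels among those not yet described, at 664, 516, 731 and 434 RPKM in polysomal light. The light over dark ratios of these 4 genes ran from 1.07 to 1.50 in total and from 1.25 to 1.57 in polysomal mRNA. RPS3A, which encodes a protein at the entry of the message channel, had 66.0, 98.2, 211 and 244 RPKM. Its ratio was 1.49 in total and 1.16 in polysomal mRNA, and its polysomal over total ratio changed by -0.36 on the log2 scale from dark to light. RPS11A, RPS15 and RPS24A had ratios of 1.35, 1.14 and 1.25 in total and of 1.63, 1.38 and 1.49 in polysomal mRNA.

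Promoters of ribosomal protein genes in Arabidopsis are known for the site II element, which TCP factors bind, and the telo box, a short run of the telomere repeat. Here the site II element was searched as TGGGCC or TGGGCT and the telo box as AAACCCTA, on both strands, in the 250 bases before the gene start in RefSeq (build TAIR10.1). To show what the matches look like, the promoters of 3 genes are written on the strand of the gene with matches in capitals. They belong to the 2 genes of highest total level that hold both motifs and to the gene of highest total level that holds neither.
RPS5A, chr3:3779546-3779795, minus strand: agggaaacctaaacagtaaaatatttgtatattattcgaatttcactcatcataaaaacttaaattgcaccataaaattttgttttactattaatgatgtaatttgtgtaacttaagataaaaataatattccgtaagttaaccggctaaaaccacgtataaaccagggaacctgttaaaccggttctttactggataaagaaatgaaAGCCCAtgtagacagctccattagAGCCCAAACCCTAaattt
RPS9B, chr5:4936430-4936679, minus strand: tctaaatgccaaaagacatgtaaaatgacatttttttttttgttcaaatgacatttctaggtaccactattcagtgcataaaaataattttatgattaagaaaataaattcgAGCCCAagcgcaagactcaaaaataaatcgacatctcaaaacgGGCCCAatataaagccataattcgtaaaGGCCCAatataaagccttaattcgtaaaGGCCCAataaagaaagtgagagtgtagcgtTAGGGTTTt
RPS18C, chr4:6173462-6173711, plus strand: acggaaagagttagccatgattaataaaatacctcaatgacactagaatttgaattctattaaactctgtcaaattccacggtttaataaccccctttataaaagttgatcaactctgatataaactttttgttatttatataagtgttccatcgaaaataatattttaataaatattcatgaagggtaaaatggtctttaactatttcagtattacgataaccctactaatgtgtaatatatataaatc

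In RPS5A the telo box began 13 bases before the gene start, and a site II match 18 bases before it shares its last base with the telo box. In RPS9B the telo box began 9 bases before the gene start and 4 site II matches began between 138 and 39 bases before it. Over the 56 genes, 37 promoters (66.1%) held a site II match, 7 (12.5%) a telo box, 5 (8.93%) both and 17 (30.4%) neither. Among the 160 other cytosolic ribosomal protein genes the shares were 69.4%, 23.8%, 18.1% and 25%. Among all 27443 nuclear protein-coding genes, which include the 56, they were 19.2%, 4.49%, 1.36% and 77.7%. Among the 17219 of these that are genes tested, they were 23.3%, 3.46%, 1.40% and 74.7%. The share with a site II match was thus high in both sets of ribosomal protein genes beside all genes. The median log2 light over dark ratio in total mRNA was 0.17 for the 37 genes with a site II match and 0.43 for the 19 without. The median log2 polysomal over total ratio in the dark was 0.96 and 1.67 in the same order. These medians were not tested, and the genes without a match include the 3 RPS28 genes and RPS21B.

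**Figure D5:**
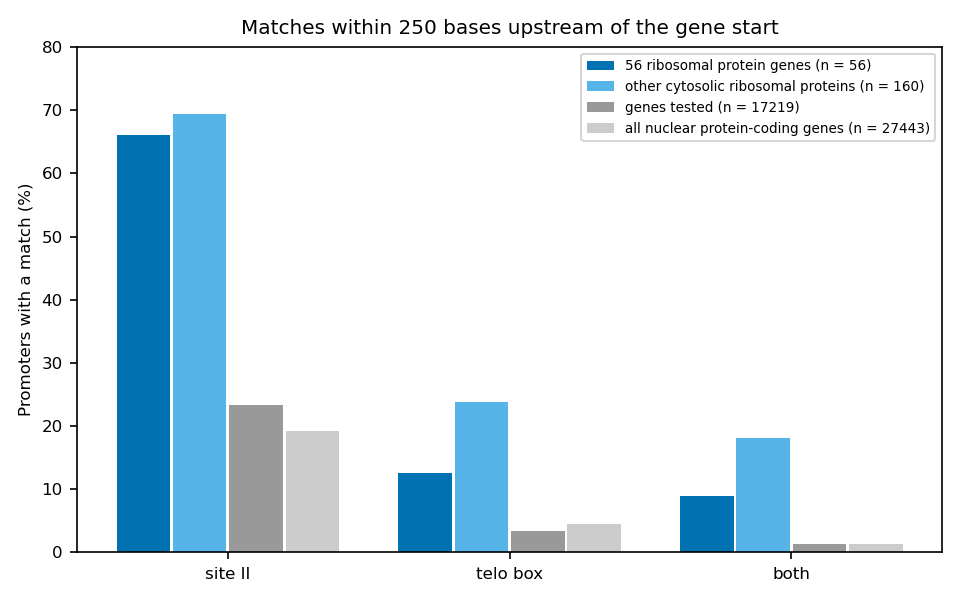
Percent of promoters with a site II match, a telo box or both within 250 bases upstream of the gene start, for the 56 genes, the 160 other cytosolic ribosomal protein genes, the genes tested and all nuclear protein-coding genes. The bars for site II reach 66.1% for the 56 genes and 19.2% for all nuclear protein-coding genes.

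The authors' deposited table of splicing events in total mRNA lists 12 events in 12 of the 56 genes, which is 21.4% of them, while 52.0% of all genes tested have a listed event. Of the 12 events 10 are alternative donor or acceptor sites, 1 is a cryptic exon (RPL23aA) and 1 is a retained intron (RPL3B), while 42.4% of all genes tested have a listed retained intron. The authors set 2 of the 12 events as light-regulated, where 17.0% of all listed events were. These were the retained intron of RPL3B, with 75% in darkness and 25% in light in the authors' deposited table, and an alternative site in RPSaB, with 50.8% and 26.5%. The event of RPL3B rests on 6 and 2 reads, and that of RPSaB on 15 and 13 reads in total mRNA. For RPSaB the authors' deposited table gives 34.4% and 51.8% in polysomal mRNA, so the direction there was opposite to that in total mRNA.

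The event with the most reads was in RPS5A. The authors' deposited table gives 809 reads and 43.5% in the dark and 900 reads and 34.3% in the light. The p-value from the authors' test is 8.9e-16 and is not adjusted. That test compares the reads of 1 dark and 1 light library, so it does not measure the spread between replicates of a condition. The event was not among those set as light-regulated. In polysomal mRNA the authors' deposited table gives 52.0% in darkness and 51.1% in light. An alternative acceptor of RPL28A had 61.5% in darkness and 55.4% in light in the authors' deposited table, and 54.9% and 58.1% in polysomal mRNA.

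For 8 events the identifier gives both ends of the alternative intron. In 3 of these the intron runs from GT to AG, and in 5 it has other ends. The 30 bases around the alternative site are shown for the 3, from the RefSeq genome (TAIR10.1) on the strand of the gene, with the ends of the intron in capitals. RPL10aA and RPL10aB use a donor inside intron 1 that lies 56 and 54 bases past the annotated donor. RPL28A uses an acceptor 4 bases into exon 2, where the capitals mark the annotated and the alternative AG.
RPL10aA, chr1:2636095-2636124, donor: cttcttcgtttatatGTatactgtacatta
RPL10aB, chr2:11764699-11764728, donor: tcttcttcgttcatcGTaattccatgaagt
RPL28A, chr2:8511720-8511749, acceptor: catttttggtgtggtgaAGgtAGgtatttg

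The alternative donor of RPL10aA had 6.83% in darkness and 2.14% in light in the authors' deposited table, and that of RPL10aB had 5.77% and 5.08%. These percents rest on 11 and 3 reads for RPL10aA and on 31 and 18 for RPL10aB. The paralogues thus share an alternative donor at a similar place in intron 1, used in a small share of reads.

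The other parts of the translation machinery are given as lists for comparison. Of 160 other cytosolic ribosomal protein genes, 144 could be tested. AT1G58684 and AT1G59359 are listed at 0 reads in polysomal dark and at the same 5025 reads in polysomal light, so no ratio is given for this pair and 142 genes are counted. In total mRNA 11 of them were at least 2-fold higher in the light and 0 lower, and in polysomal mRNA 10 and 0. Of all genes tested, 10.7% and 9.35% were at least 2-fold higher in total and polysomal mRNA. At least 2-fold lower were 5.73% and 10.3%. These shares also stand beside the light over dark counts of the lists below. The median log2 ratios of the 142 genes were 0.35 and 0.53. In the polysomal over total ratio 122 were at least 2-fold higher in darkness and 133 in light. Of all genes tested, 16.5% and 12.8% were, which also stands beside the lists below. The median log2 ratios of the 142 genes were 1.77 and 2.05, above the 1.36 and 1.44 of the 56 genes. Above genes of like length lay 123 and 136, where 49.8% and 49.6% of all genes tested did. The highest polysomal over total ratio was that of AT4G29390, 4.21 on the log2 scale in darkness and 3.87 in light.

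Of 11 genes for elongation factors, 1 was at least 2-fold higher in the light in each fraction (AT5G12110, a subunit of the exchange factor of elongation factor 1, with 5.34 RPKM in total dark and 46.2 in total light) and the median log2 ratio was -0.16 in total mRNA. In the polysomal over total ratio 2 of the 11 were at least 2-fold higher in each condition, with median log2 ratios of -0.27 and -0.13. None of 10 genes for subunits of initiation factor 3 was past 2-fold in light over dark. Their log2 ratios in total mRNA ran from -0.71 (TRIP-1) to 0.34 (AT4G20980). Their median log2 polysomal over total ratio was 0.03 in darkness and 0.25 in light, from EIF3C at -1.49 to EIF3K at 0.91 in the dark. Of 14 genes for ribosome biogenesis factors, 0 were past 2-fold in light over dark in total mRNA. In polysomal mRNA 2 were at least 2-fold higher. The median log2 ratios were 0.44 and 0.63, and FIB2, a fibrillarin, was highest in polysomal mRNA at 1.12. Over the 14 genes the median log2 polysomal over total ratio was -0.39 in darkness and -0.15 in light. In the dark it ran from -1.60 (NUC-L1) to 1.85 (NOP10). In total mRNA NOP10 and NMD3 were the genes of this list with a log2 ratio of light over dark below 0, at -0.13 each.

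Of 6 genes for TOR, its partners and the S6 kinases, PK1, an S6 kinase, was at least 2-fold higher in the light in polysomal mRNA, at 1.14 on the log2 scale. TOR itself was lowest in the polysomal over total ratio, at -2.26 on the log2 scale in the dark, for a transcript of 8.06 kb. Of 6 seed storage genes, taken as a sign of remaining seed material, 4 could be tested. Their median log2 light over dark ratio was -0.68 in total and -1.14 in polysomal mRNA, and 2 of the 4, CRA1 and CRU3, were at least 2-fold higher in polysomal than in total RNA. Their part in the values of the ribosomal protein genes was not tested.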

How the data were processed

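The analysis started from the authors' deposited tables. Per the file headers, the expression table gives transcript length, read counts of total mRNA, read values of polysomal mRNA, RPKM of each library and the authors' log2 ratio of light over dark. The deposited polysomal reads are estimated counts, since some are not whole. The deposited RPKM values are scaled by the authors per kilobase and to library size. Tables of splicing events hold, per the file headers, event reads, the percent of reads with the event and a p-value by the authors. The build is TAIR10, per the submitters' processing notes. How reads were aligned and counted, and whether strand was used, is not given in the sources used here. Of the genes, 13 of 56 overlap another gene. Polysomal columns were range-checked by script because rows without polysomal values end early.

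Ratios were computed as log2 of RPKM plus a pseudocount of 1, without further scaling, over genes with values in all 4 libraries whose mean reached 1 RPKM. They were called past 2-fold. There is 1 library per group, so genes were given no p-value. Exact 95% intervals come from the reads (estimated ones rounded). Ratios of paralogue pairs have intervals from the same reads. Implied lengths are reads over RPKM, scaled to genes over 3 kb. Sequences and gene positions are from RefSeq (TAIR10.1). Of 172 further ribosomal protein identifiers, 12 had no ribosomal name in RefSeq and were left out. The steps were tested on simulated data, with Python 3.11.15, pandas 2.3.3, SciPy 1.17.1 and Biopython 1.88. The members and lists were chosen with earlier results of these data known. All 56 members could be named. Those past 2-fold, the extremes of each comparison and the families with more than 1 gene were described, and of other lists the highest and lowest gene. Alternatives were other pseudocounts, filters, scalings, length windows and reads. Names follow RefSeq and the usual family names.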

Additional observations from a re-analysis of the deposited data

Results flagged for a closer look

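In 8 of the 56 genes the light over dark ratio was below 1 in total mRNA and above 1 in polysomal mRNA, with counting intervals that exclude 1 in each, where 1.13% of all genes tested with reads in all libraries showed the same. This share is not matched on read depth, and genes with more reads, as most of the 56 have beside the median gene, have narrower intervals. With 1 library per group the difference between the fractions was not tested. The difference of the log2 ratios, polysomal minus total, was 0.83 for RPS15a, 0.52 for RPS18C, 0.51 for RPS10B, 0.45 for RPS9B, 0.41 for RPS5A, 0.40 for RPS21C, 0.31 for RPL9C and 0.30 for RPS4D. RPS15a, RPS18C, RPL9C and RPS4D have polysomal reads that are not whole, and RPS18C and RPL9C overlap a gene on the opposite strand. The part of these features in the differences was not tested.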

How the results depend on the processing

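Of 137 comparisons of a count with the same count under an alternative, 127 stayed within 1.5 times and 10 moved. The 127 include counts that were 0 under both settings. They also include a fall from 39 to 26 genes at least 2-fold higher in polysomal over total in the light with equal nuclear sums. For light over dark in polysomal mRNA, the 2 genes at least 2-fold higher became 1 with a pseudocount of 5, 1 with a minimum mean of 5 RPKM and 4 with ratios centred on genes of at least 5 RPKM. For polysomal over total in the dark, the 1 gene at least 2-fold lower became 0 with a pseudocount of 5 and 2 with equal sums over nuclear genes. For the light shift of this ratio, 0 genes higher became 1 with centred ratios. Pairs of paralogues at least 2-fold apart went from 3 to 1 in light over dark in polysomal mRNA and from 10 to 4 in polysomal over total in the dark among genes with whole reads, and from 6 to 3 in polysomal over total in the light with RPKM recomputed from reads and the deposited length. Fewer genes enter the count with whole reads. The cause was not tested for the others. Of the splicing events set as light-regulated, 0 of 2 had a deposited p-value under 0.0001. Scaling to equal nuclear sums lowered polysomal over total ratios by 0.59 in darkness and 0.60 in light for all genes alike. The members' medians became 0.77 and 0.87, and 24 and 26 genes stayed at least 2-fold higher. Centring raised ratios by 0.22 for light over dark in polysomal mRNA and 0.28 for polysomal over total in the light. No median of the 56 genes changed sign. Signs of single genes did change with scaling. With equal sums, 8 genes turned below 0 in polysomal over total in the dark (RPL4D, RPL9C, RPL9D, RPL10C, RPP0B, RPS10B, RPS18C and RPS4B), 3 in the light (RPL3A, RPL9C and RPP0B), 7 in light over dark in total mRNA, none of them over 0.05 in size, and RPL8A in polysomal mRNA (from 0.05 to -0.01). With centred ratios RPL4A turned above 0 in light over dark in polysomal mRNA (from -0.06 to 0.15) and RPS9C in polysomal over total in the light (from -0.26 to 0.02). From reads alone the polysomal over total difference of 2 pairs turned in the dark and of 4 in the light. The difference of RPS18A minus RPS18B went from -0.45 to 0.60 in the dark and from -0.63 to 0.42 in the light, and the other pairs differed by 0.08 or less on either scale. With a pseudocount of 5, RPS28A minus RPS28B went from 0.37 to -0.05 in the dark and from 0.13 to -0.12 in the light in polysomal over total, and from 0.05 to -0.14 in light over dark in total mRNA; the other pair differences that turned with a pseudocount were 0.05 or less in size. The counts of genes with opposite directions in the fractions were compared under 2 scalings, and the leading paralogues with recomputed RPKM, chosen after seeing the data. No paired analysis was possible because each group has 1 library. Genes of low level such as RPSaB are limited by depth.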
